A study of Drosophila melanogaster with 6 samples.

Results

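A CG symbol is the number a *Drosophila melanogaster* gene keeps until it is given a name, and 19 genes known only by such a number had brighter probe sets in cells that express a proneural cluster reporter than in the other cells of the same wing disc. They were chosen by rule from 4911 probe sets with 1 CG symbol, among 13966 probe sets other than controls, and each gene met the rule with 1 probe set. The rule asked for a mean log2(Signal + 16) at least 1 higher in the GFP-positive than in the GFP-negative arrays, a lowest GFP-positive Signal above the highest GFP-negative one, and a Present call on at least 2 GFP-positive arrays. Signal is the brightness of a probe set in arbitrary units, and a Present call means that its matching probes were brighter than their mismatch controls. Because these measured values chose the genes, the levels and differences below are a description and support nothing by themselves. The reference gene table gave the same CG symbol for all 19.

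The cells came from wing imaginal discs of late larvae with an E(spl)m4 reporter, in which regulatory DNA of this Notch target gene drives green fluorescent protein (GFP). About 200 discs were pooled for a sample, dissociated with trypsin and sorted, with the fluorescence of w1118 discs, which lack the reporter, as the threshold. All cells above the threshold made up a GFP-positive sample and 100000 cells below it a GFP-negative one, both from discs of the reporter genotype. There were 3 samples of each kind, with 1 Affymetrix array each, and the arrays called between 4321 and 5039 probe sets Present. Separate dissections are not stated for the replicates, whose spread, and so every p-value, may be technical. In such bulk samples, fewer cells of a type and less RNA per cell cannot be told apart.

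A proneural cluster is a group of epithelial cells made competent by basic helix-loop-helix proteins of the achaete-scute complex to become neural. Notch signalling among these cells turns on genes of the E(spl) complex, holds most of them back, and leaves a sensory organ precursor that divides to form a bristle with its neuron and support cells. A gene with only a CG number has a predicted product, sometimes with a recognisable protein family, but no phenotype or function that earned it a name. Of the 19 genes, 10 belong to a protein family stated below from general knowledge, and no function is stated for the other 9.

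The sort was checked with marker lists. Of the sensory organ precursor list, 4 of 6 tested genes passed as higher in GFP-positive cells (limma, adjusted p under 0.05) and 0 as lower. The summed Signal of all 10 genes lay between 3915 and 5317 in GFP-positive and between 843 and 1306 in GFP-negative arrays. Of the 10, 3 (*ase*, *sens* and *cpo*) were Present on no array. Of the E(spl) and Bearded list, 5 of 9 passed as higher. Of the adult muscle precursor list, 3 of 4 tested genes passed as lower, with summed Signals of 967 to 1146 in GFP-positive and 3206 to 5981 in GFP-negative arrays. Of the glia list, 1 of 3 tested genes passed as higher and 0 as lower, with summed Signals of 1417 to 2080.4 in GFP-positive and 1204 to 1606 in GFP-negative arrays. It was *loco*, a regulator of G protein signalling, with a difference of 1.25 (limma adjusted p = 0.0297). The glial fate gene *gcm* had a difference of 1.75, with Signals of 116, 251 and 100 against 5.9, 31.6 and 86.4. It was Present on 1 array, GFP-positive array 2, and so was not tested. For *repo*, the defining glial transcription factor, the difference was -0.09 and did not pass. The tested genes of the hemocyte (2) and tracheal (2) lists did not pass, and the 4 measured genes of the neuron list were Present on no array. Of the disc epithelium list, *vg* was Present on all 6 arrays, *nub* on none, and *en*, of the posterior compartment, passed as lower. The part of muscle precursor cells, glia or posterior cells in the differences of the 19 genes was not tested.

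Of the 1018 CG probe sets Present on at least 2 GFP-positive arrays, the 19 made up 1.87%. The same thresholds were met by 62 of 2784 named probe sets (2.23%) and by 94 of all 4347 (2.16%). Turned around, they were met by 33 of 1158 CG probe sets lower in GFP-positive cells (2.85%). Of all CG probe sets, 20.7% were Present on at least 2 GFP-positive arrays, and of all named ones 37.0%. Ranked by difference among the 94, of which the 19 were a part, none of the 19 stood in the first 10. In the first 20 stood 1 (*CG4822*, in place 16), and in the upper 47 stood 8. These counts are small and the ranking uses the values of the rule, so nothing is read from them.

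**Figure D1:**
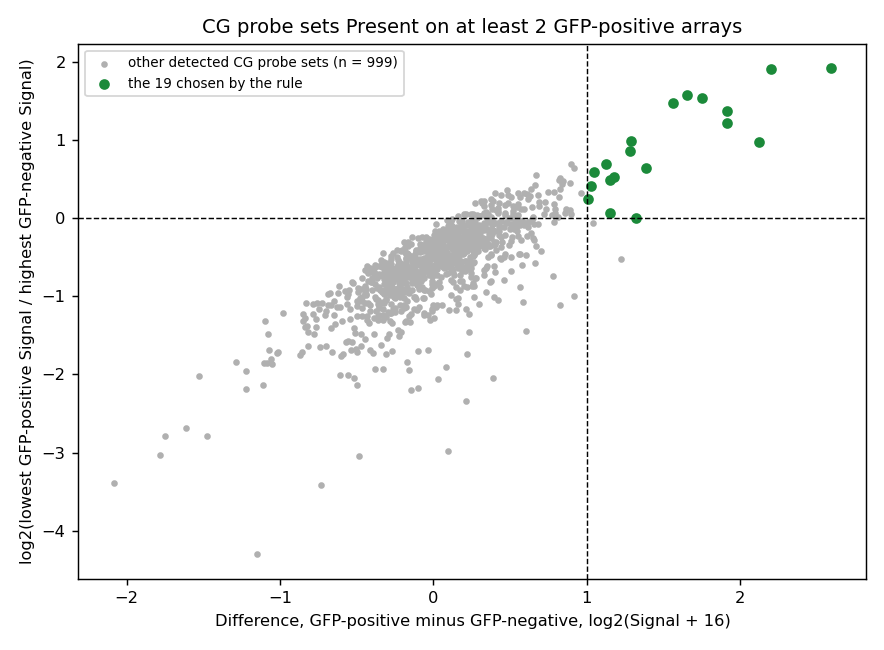
Each point is a CG probe set Present on at least 2 GFP-positive arrays (1018 in all), with its difference in mean log2(Signal + 16) on the x axis and the log2 ratio of the lowest GFP-positive to the highest GFP-negative Signal on the y axis. The dashed lines are the thresholds of the rule, and the 19 chosen probe sets (green) lie above and to the right of both.

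Both ABC transporters among the 19 belong to the G subfamily, the half-transporters that include the eye pigment transporter white. *CG4822* had the greatest difference of the 19. Its Signal was 191, 141 and 277 on GFP-positive arrays 1, 2 and 3 and 37.3, 9.8 and 15.7 on GFP-negative arrays 1, 2 and 3. No GFP-negative array called it Present, so its fold is given as a bound, at least 4.29. That bound sets the mean log2 value of the GFP-positive arrays against, for each GFP-negative array, its measured Signal or the faintest Present Signal of the array, whichever is higher, on the log2(Signal + 16) scale. It takes no account of the spread between arrays. *CG5853* was Present on all 6 arrays, with 759.5, 664 and 572 in GFP-positive and 428, 278.5 and 264 in GFP-negative cells. Its difference of 1.03 (SE 0.25, from the limma fit) lay close to the threshold.

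Genes of nucleoside and nucleotide breakdown were represented by *CG6330*, of the uridine phosphorylase family, which splits uridine into uracil and ribose phosphate, and by *CG11883*, of the 5′ nucleotidase family, which removes phosphate from nucleotides. *CG6330* had Signals of 1822, 1544 and 1480.5 in GFP-positive and 449, 444 and 508 in GFP-negative cells, a difference of 1.75 (SE 0.21). All 6 arrays called it Present, and the lowest GFP-positive Signal was 2.92 times the highest GFP-negative one. *CG11883* had 246, 253 and 201 against 65.1, 67.2 and 56.1, and no GFP-negative array called it Present. Its GFP-negative Signals were not below the faintest Present ones, so the bound equals the measured fold of 3.15 on the log2 scale. The 2 groups were separated by a gap of 2.98 times.

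A pair of members belong to families that act on fatty acids or their amides. *CG9747* is of the acyl-CoA desaturase family, which puts double bonds into fatty acids. Its Signal was 1259, 1517 and 729 in GFP-positive and 725, 369.9 and 309 in GFP-negative cells. The groups barely parted, since GFP-positive array 3 (729.1) and GFP-negative array 1 (725.3) had nearly the same value. *CG7900* is an amidase of the fatty acid amide hydrolase type. It had 764, 919 and 1130.2 against 487, 364 and 229, and both groups were Present on every array.

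The remaining members with a stated family have unlike products. *CG8483* encodes a protein of the CAP (antigen 5) family, whose members are mostly secreted. Its Signals of 2316, 2518 and 2708 in GFP-positive cells stood clear of 569.8, 432.5 and 613 in GFP-negative cells, a difference of 2.20 (SE 0.22). Only GFP-negative array 1 called it Present, and the other two called it Marginal. *CG7054*, of the phosphatidylethanolamine-binding family, had 459, 313 and 314 against 158, 59.8 and 30.8, and was Present on no GFP-negative array and on GFP-positive arrays 1 and 3. The same bound gave 4.35-fold, a log2 difference of 2.12 beside the measured 2.13, so it is close to a plain estimate. The GFP-negative values of the gene covered the wider range. With 1 array left out its difference ran from 1.69 to 2.64. *CG5618*, a decarboxylase that uses pyridoxal phosphate, had 415.5, 288 and 280.2 against 153.5, 139.6 and 86.8. Its bound of 2.43-fold equals the measured fold on the log2 scale. *CG3492*, of the cyclophilin type of prolyl isomerases, had 175, 194 and 175 against 42.2, 83.2 and 146.5, and its mean Signals stood in a ratio of 2.00. For both genes GFP-positive array 2 gave a Marginal call and no GFP-negative array a Present one, and the GFP-negative values of *CG3492* covered a far wider range than its GFP-positive ones.

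Of the 9 members with no stated function, 3 had a difference above 1.5 and were Present on all 6 arrays. *CG13053* had Signals of 7075.5, 4930.3 and 8423 in GFP-positive and 1701, 1649 and 1906 in GFP-negative cells, a difference of 1.92 (SE 0.24). *CG34165* had 3372, 2133 and 2487 against 912, 523 and 660.1, a difference of 1.92 (SE 0.27). In both genes array 2 was the lowest of its group. *CG16721* had 1329, 1448 and 1426 against 462, 452 and 478, a difference of 1.56 (SE 0.20). Its arrays agreed most closely within the groups, with a pooled SD of 0.05 log2 units against a median of 0.35 over the 19.

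The other 6 had differences between 1.05 and 1.29. *CG11409* had 499.9, 589.5 and 424.5 in GFP-positive and 214, 202 and 172 in GFP-negative cells, where it was Present on no array. Its bound of 2.44-fold equals the measured fold on the log2 scale. *CG42749* had 749.8, 703 and 957 against 380.1, 434 and 273.5. *CG7702* had 3902, 3003 and 3141 against 1985, 1547 and 1333.5. In these 3 genes the lowest GFP-positive array was at least 1.51 times the highest GFP-negative one. *CG10508* had 590.5, 493 and 429 against 143, 219 and 299, so that GFP-negative array 3, its highest, lay 1.44 times below the lowest GFP-positive array. *CG3625* had 3243, 2914 and 6477 against 1611, 2081 and 1642, and GFP-positive array 3 stood well above the other two. *CG9411* had 134, 189.5 and 92.8 against 65.2, 88.6 and 19.8, with GFP-positive array 3 and GFP-negative array 2 nearly touching (92.8 and 88.6). It was Present on GFP-positive arrays 1 and 2 and GFP-negative array 1.

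**Figure D2:**
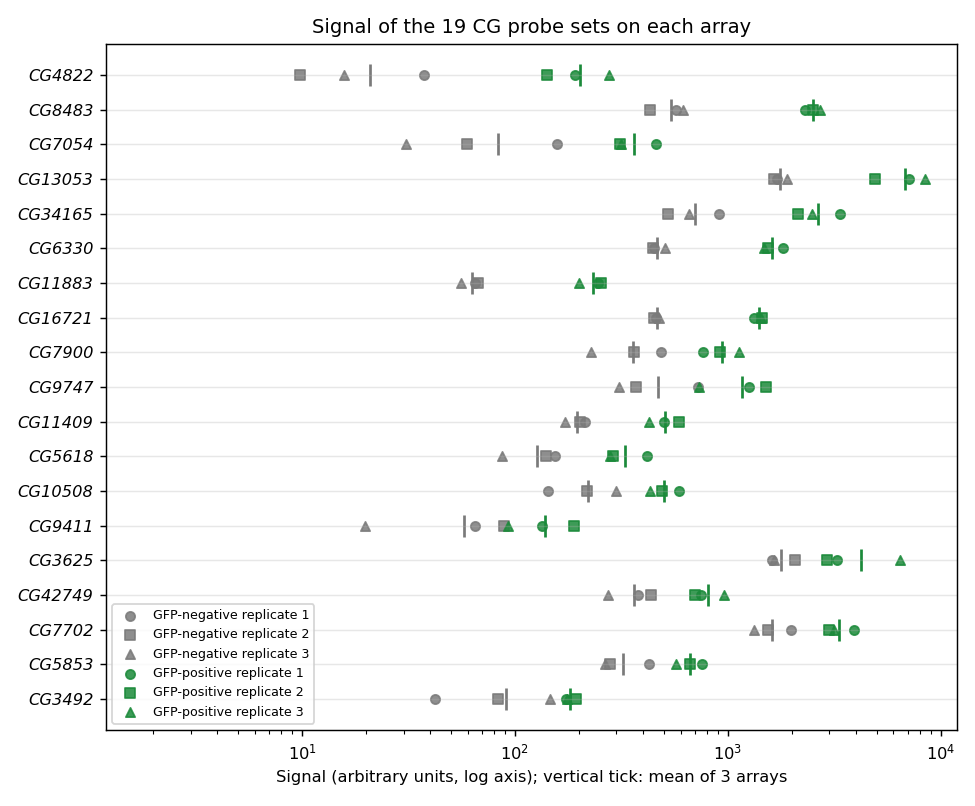
Signal of the 19 CG probe sets (rows, ordered by difference) on a log axis, with 1 symbol for each of the 3 GFP-positive (green) and 3 GFP-negative (grey) arrays and a vertical tick at each group's mean. The green and grey symbols do not overlap in any row, as the rule demands, and they nearly touch for *CG9747* and *CG9411*.

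Taken pair by pair, the arrays with the same replicate number gave a positive difference for all 19 genes, which the lack of overlap fixes in advance. The size varied. All 3 pairs reached 1 for 9 genes, the replicate 1 pair, which was hybridised on an earlier day than the other 4 arrays, reached 1 for 13, and the day 2 arrays together for 17. *CG7900* had 0.63 in the replicate 1 pair, 1.30 in the replicate 2 pair and 2.23 in the replicate 3 pair. *CG3492* ran the other way, with 1.71, 1.08 and 0.24. *CG10508* had 1.93 in the replicate 1 pair and 0.50 in the replicate 3 pair, and *CG3625* 1.00, 0.48 and 1.97. *CG16721* was even, at 1.49, 1.65 and 1.55, as was *CG11883* at 1.69, 1.69 and 1.59. Whether the group difference itself changed with the day was not tested.

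**Figure D3:**
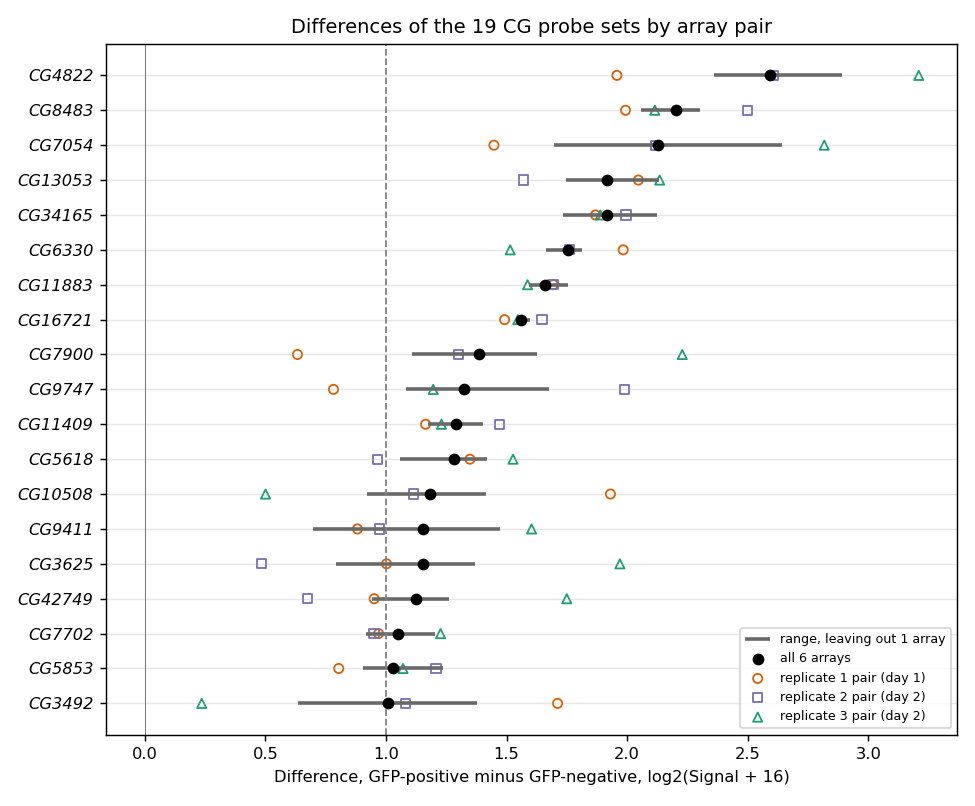
Differences in log2(Signal + 16), GFP-positive minus GFP-negative, of the 19 CG probe sets (rows). Black points use all 6 arrays, bars span the values with 1 array left out, and open symbols are the single pairs of equal replicate number, which run from 0.24 (*CG3492*, replicate 3) to 3.21 (*CG4822*, replicate 3).

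Hybridization day is a contrast within the groups that the rule did not use, though the rule favours probe sets with little spread. With group and day in the limma model, 0 of the 19 passed an adjusted p under 0.05 for day, beside 0.384% of the 4943 tested probe sets. At an unadjusted p under 0.05 there were 2 of 19, beside 15.7% of all tested. The 2 were *CG7054*, with a log2 difference of -1.04 between day 2 and day 1 (limma adjusted p = 0.178), and *CG34165*, with -0.58 (limma adjusted p = 0.223). The 19 had a median day difference of -0.09, and 14 of them were lower on day 2, while all tested probe sets had a median of 0.02.

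In the limma fit over all tested probe sets, 13 of the 19 passed as higher in GFP-positive cells at an adjusted p under 0.05, beside 1.25% of the 4943 tested. The rule used the same contrast, so nothing is read from that count. The 6 that did not pass were *CG9747*, *CG10508*, *CG9411*, *CG3625*, *CG5853* and *CG3492*. With the replicate number as a block, 17 passed, all but *CG9411* and *CG3492*, beside 2.16% of all tested. The count of 13 depended on single arrays, with 6, 7 and 6 without GFP-positive replicates 1, 2 and 3 and with 7 and 8 without GFP-negative replicates 2 and 3, but 15 without GFP-negative replicate 1. Without those 6 arrays in turn, 41, 44, 38, 37, 48 and 69 probe sets passed as higher, in place of 62. The detection filter was applied again to the arrays left, so some members were then not tested and count as not called.

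Membership depended on the arrays used. Applied again with each array left out in turn, the rule kept 9 of the 19 every time. These were *CG4822*, *CG8483*, *CG13053*, *CG34165*, *CG6330*, *CG11883*, *CG16721*, *CG7900* and *CG9747*, and the first 8 of them were also kept under every other setting tried. *CG3492* left the list without any of 4 arrays, and *CG5853* and *CG9411* without any of 3. The rule still asked for 2 Present calls when only 2 GFP-positive arrays were left. So the 5 members Present on 2 GFP-positive arrays dropped out without either of them, whatever their difference. *CG7054*, for example, was lost without GFP-positive replicate 1 or 3, at differences of 1.95 and 2.21. Scaling the arrays to equal medians shifted the median difference of all tested probe sets by -0.11. It took *CG9747*, *CG7702*, *CG5853*, *CG3492* and *CG9411* off the list. *CG9747* and *CG9411* kept differences of 1.21 and 1.05, and they were lost because their groups then overlapped.

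The members just inside the threshold of 1 were *CG3492* (1.01), *CG5853* (1.03) and *CG7702* (1.05). Just outside, with the other conditions met, were *CG4210* (0.96), *CG3788* (0.92) and *CG2145* (0.90). The overlap condition alone kept out 2 CG probe sets, *CG8389* (1.04) and *CG3552* (1.23), whose GFP-negative array 1 lay above the lowest GFP-positive array. The detection condition alone kept out 108, of which 98 were Present on no GFP-positive array and 10 on 1.

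For 3 of the 19 genes the array holds another probe set, and in none of them did it meet the rule over all 6 arrays. That of *CG3625* met it in the day 2 arrays alone, and without GFP-positive replicate 2 or GFP-negative replicate 1. The other probe set of *CG3625* was Present on 3 GFP-positive and 2 GFP-negative arrays, with Signals of 196, 67.0 and 171 against 145, 30.9 and 62.0, so its groups overlapped while its difference of 0.83 had the same sign. The other probe sets of *CG4822* (difference 1.13) and *CG42749* (1.66) were Present on no array. Their Signals were 44.1, 56.0 and 14.1 against 9.1, 6.5 and 5.9, and 96.2, 97.3 and 286 against 22.3, 92.9 and 13.4. In all 3 genes both probe sets had the higher group mean in GFP-positive cells. The groups did not overlap in the second probe sets of *CG4822* and *CG42749*, but these had no Present call.

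Relatives of the members were examined in 9 protein families that hold 10 of the 19 genes. The families were listed from general knowledge after the members were known. Of 59 relatives with a probe set, 24 were Present on at least 2 arrays of a group, and their median difference was 0.00 (lowest -0.49, highest 0.92). Of these, 0 met the thresholds of the rule in either direction. A relative with a CG symbol that met the rule would itself be a member. For such relatives the 0 on the higher side was therefore fixed in advance, and nothing is read from it. In limma 0 of the 24 passed, beside 1.25% of all tested called higher and 1.74% called lower, and 3 had an unadjusted p under 0.05, beside 14.0% of all tested. With the replicate block 1 passed as higher, beside 2.16% of all tested.

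That 1 was *CG3788*, the other uridine phosphorylase gene near the threshold. Its Signal was 1056, 1003 and 1073 in GFP-positive and 557, 452 and 642 in GFP-negative cells. The groups did not overlap, and the difference of 0.92 (SE 0.22) did not pass in limma (adjusted p = 0.0523). It passed with replicate number as a block (limma adjusted p = 0.0319) or with day (0.0337), but not with lot (0.121). The last gene of the family, *CG17224*, had 452, 458.5 and 319.9 against 410.4, 346.5 and 556, with overlapping groups. So the 3 measured uridine phosphorylase genes differed in pattern, with *CG6330* above the threshold, *CG3788* just below it and *CG17224* at -0.08; the differences between them were not tested.

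Among the G subfamily transporters, 4 relatives of *CG4822* and *CG5853* were detected. *CG3164*, which also lies next to *CG4822* in the reference gene order, had a difference of 0.55 (limma adjusted p = 0.303), *CG11069* 0.50, *CG31689* 0.44 and *CG17646* -0.49. Of the 5′ nucleotidase genes, *veil* had Signals of 477, 478 and 433 against 106, 203 and 245, but was Present on 1 GFP-positive array and so was not tested. Among the desaturases, *Desat1*, the main acyl-CoA desaturase gene, had a difference of -0.11 and *CG8630* of 0.33. The 2 detected amidase relatives of *CG7900*, *CG8839* and *CG5112*, had -0.14 and -0.23. Of the phosphatidylethanolamine-binding relatives of *CG7054*, *CG17919* had 0.62 and *CG6180* -0.11. The 1 detected decarboxylase relative of *CG5618*, *amd*, had 0.31. All 11 measured cyclophilin relatives of *CG3492* were detected, from -0.40 (*Cyp40*) to 0.48 (*CG2852*). Of the 13 measured CAP family relatives of *CG8483*, 12 were Present on no array.

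**Figure D4:**
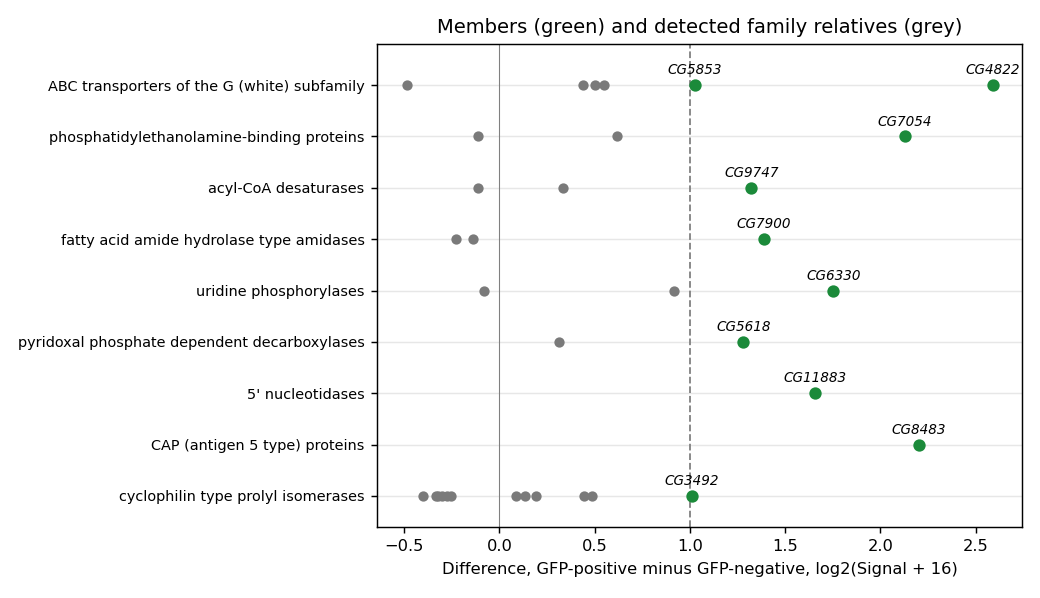
Difference in log2(Signal + 16), GFP-positive minus GFP-negative, of the members (green, named) and of the relatives Present on at least 2 arrays of a group (grey) in 9 protein families. The grey points lie between -0.49 and 0.92, below the dashed threshold of 1 that the members had to pass. A relative with a CG symbol that met the rule would be a member and so green.

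The 19 genes were spread over the genome, with 4 on chromosome arm 2L, 2 on 2R, 3 on 3L, 6 on 3R and 4 on X. Of the 1018 detected CG probe sets, those matched to the reference gene table had 180, 209, 190, 262 and 170 on these arms and 4 on chromosome 4. No member stood next to another in the order of protein-coding genes, nor next to a gene of the marker lists. Of the 38 neighbours, 31 had a probe set and 12 were Present on at least 2 arrays of a group. Of these 12, 8 had a positive and 4 a negative difference, with a median of 0.10. The thresholds of the rule turned around were met by 2 of the 12, *Bet5* and *Trmt112*. The share for CG probe sets Present on at least 2 GFP-negative arrays was 2.85%. In limma 0 of 12 passed, beside 1.25% of all tested called higher and 1.74% called lower, and 4 had an unadjusted p under 0.05, beside 14.0% of all tested. With the replicate block 0 passed as higher and 2 as lower, beside 2.16% and 3.03% of all tested.

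Both of those neighbours were lower in GFP-positive cells, next to members that were higher. *Bet5*, the neighbour of *CG9747* and a gene for a subunit of the TRAPP vesicle tethering complex, had Signals of 538, 565 and 586 in GFP-positive and 800.2, 1250.1 and 1607 in GFP-negative cells. Its difference was -1.04 (limma adjusted p = 0.0752). Blocked by replicate the limma adjusted p was 0.0212, by day 0.0250 and by lot 0.0962. *Trmt112*, the neighbour of *CG10508* and a cofactor of methyltransferases, had 336, 369 and 946 against 946, 1137 and 1252, with GFP-positive array 3 at the level of the lowest GFP-negative array. Its difference was -1.14 (limma adjusted p = 0.153). It passed with the replicate block alone (limma adjusted p = 0.0196), and not when blocked by day (0.0636) or by lot (0.130). The tandem relatives *CG7910*, next to *CG7900*, and *CG15531*, next to *CG9747*, were Present on no array.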

How the data were processed

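Labelled RNA of each sample was hybridised to 1 Affymetrix Drosophila genome array. The deposited intensity, named Signal, was computed by the authors with the Affymetrix statistical algorithm and scaled on each array to a target of 500, per the file headers, and each probe set has a deposited call of Present, Marginal or Absent per the file headers. The series table holds the same intensity values. For labelling and genome build, the sources used here give nothing. Groups and replicate numbers came from the sample titles. Gene symbols came from the platform annotation, which names 1 gene for 12442 of 13966 probe sets other than controls; 12393 matched the RefSeq gene table of assembly release 6, used for names and neighbours only.

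Values were taken as log2(Signal + 16) without further scaling, so fold changes of dim genes are understated. Probe sets Present on at least 2 of 3 arrays of a group (4943) were fitted with limma 3.58.1 in R 4.3.3 (lmFit, eBayes with intensity trend, two-sided, Benjamini-Hochberg adjusted p, threshold 0.05), which was tested on simulated data. Deviations from the group means were correlated most in the replicate 1 pair (r = 0.402 over tested probe sets) and weakly in pairs 2 and 3 (0.102 and 0.122). The highest r between different numbers was 0.221, for GFP-positive array 3 and GFP-negative array 2. So the values set apart the replicate 1 pair alone, and replicate number was a block in an alternative only. The pairing is a reading of the data, not of the labels. In the array records the replicate 1 pair shares a hybridization day of its own, and the replicate 1 pair and the replicate 3 pair each share a lot. GFP-negative array 2 has the lot of the replicate 1 pair, and GFP-positive array 2 a lot of its own. Gaps between arrays were measured on Signal. The members and the marker lists were chosen with earlier results of these data known, and the family lists after the members were. Every member is named; the relatives and neighbours named were chosen after their values were seen, and the others are given by counts and ranges. Sequences were not analysed here. Precision is limited by the 3 arrays per group.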

Additional observations from a re-analysis of the deposited data

How the results depend on the processing

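The list held 14 to 26 probe sets under the settings tried, within 1.5 times the main count of 19, and the 19 kept a positive difference in all of them. Their median difference of 1.32 ran from 1.21 under median scaling to 1.59 in the day 2 arrays alone. Leaving out 1 array gave lists of 15 to 26 probe sets and medians of 1.29 to 1.56. Lists of similar size did not hold the same probe sets. In the day 2 arrays alone 5 members left and 7 other probe sets joined. Without GFP-negative replicate 1, 2 members left and 9 other probe sets joined. Of 209 single differences recomputed, 6 moved by more than the pooled SD between arrays, all under another pseudocount or median scaling, and 0 changed sign. *CG4822* had 3.37 with a pseudocount of 1 and 1.64 with 64, since its GFP-negative Signals are dim.

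The count of members called by limma, 13, was 6 with no detection filter, 7 in the day 2 arrays alone and 6 to 15 with 1 array left out. With the replicate block it was 17, with day as a block 17 and with lot as a block 10. Members that were not tested after leaving out arrays count as not called. The count of all probe sets called higher, 62, was 107 with the replicate block, 39 in the day 2 arrays alone and 37 to 69 with 1 array left out. The 0 members called for day stayed 0 in each alternative run. The causes were not tested. Settings added after the data were seen were the reference table's symbols (19 genes) and no condition on overlap (21).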

Other observations

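The 10 CG probe sets that met the rule but for a Present call on only 1 GFP-positive array included differences as large as those of the members. *CG10581* had Signals of 617.5, 241 and 338 in GFP-positive and 90.4, 20.2 and 37.2 in GFP-negative cells. *CG12481* had 359.7, 433 and 554 against 34.4, 93.2 and 82.0, and *CG15047* had 253, 273.5 and 141 against 40.4, 60.7 and 11.6. Next to *CG13053*, the probe set of *CG34247* had 1667, 667 and 1059.6 against 184, 251 and 122 while no array called it Present (GFP-positive arrays 1 and 3 called it Marginal). These genes were chosen after their values were seen, and in an Absent call the matching probes were not told apart from the mismatch probes.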
